A study of Mus musculus with 31 samples.

Results

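The question addressed here was whether cigarette smoke changed the response of AKR mouse lung to bacterial lipopolysaccharide (LPS), read as a difference of differences. For each gene, the LPS minus saline difference after room air was taken from the LPS minus saline difference after smoke, and the result is called the interaction below, in log2 units. A positive interaction means that the LPS minus saline difference lay higher after smoke, and a negative one that it lay lower. The members were the AKR lung arrays whose titles give 3 weeks of exposure followed by an instillation, 11 arrays of 31 in the series. AKR is an inbred mouse strain; the series also covers C57 mice, whose arrays were kept out of the fit.

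All mice were labelled male with an age of 6 weeks, and whole lung was profiled. There were 3 arrays after room air and intratracheal normal saline, 3 after cigarette smoke and saline, 3 after room air and LPS in saline, and 2 after smoke and LPS. These groups are called air saline, smoke saline, air LPS and smoke LPS. The titles of these arrays give 3 weeks of exposure, whereas the design text gives 6 weeks for instilled mice, and the arrays could not settle which holds. The time between instillation and collection and the dose of LPS are not given in the sources used here. The titles call the arrays biological replicates; no other label names separate animals, so the p-values measure the spread between these arrays. The smoke LPS group of 2 arrays limited the precision of every interaction.

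LPS is a component of the outer membrane of Gram-negative bacteria and is sensed by TLR4 with CD14 and MD-2 on macrophages and epithelium. The receptor signals through NF-kB to cytokine and neutrophil chemokine genes and through an interferon branch to antiviral genes, and instilled LPS fills the air spaces with neutrophils. Cigarette smoke loads the lung with oxidants and aryl hydrocarbons, which act on the NRF2 and aryl hydrocarbon receptor pathways, and it alters alveolar macrophages and airway epithelium.

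The lung markers Sftpc, Sftpb, Scgb1a1, Ager and Cldn5 lay at the 97.9th percentile of probe sets or above on average, and Rag1 and Dntt of thymocytes were too dim to be tested. Arrays of a group correlated at 0.958 to 0.989 and arrays of different groups at 0.862 to 0.986. The first principal component held 68% of the variance and set LPS arrays apart from saline arrays; on it the air LPS arrays stood at 30.7, 44.7 and 16.9, and the smoke LPS arrays at 46.1 and 46.7. The third air LPS array thus had the smallest LPS response, and results that depend on it are given with and without it. A set of 15 heart-type muscle genes varied between arrays within groups: its mean level, relative to the mean of the 11 arrays, was highest at 1.33 on air saline array 3 and lowest at -1.58 on smoke LPS array 2, and it stood at -1.25 on air LPS array 2. The part of these differences between arrays in the results below was not tested unless a value is given.

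Smoke changed the LPS effect of 4 of 14326 genes tested (0.0279%), all with a positive interaction: Rnase2a, Thbs1, Hal and Slc16a6. They encode a secreted ribonuclease, thrombospondin-1, an enzyme of histidine breakdown and a monocarboxylate transporter. Rnase2a was bright enough to be tested only through its smoke LPS arrays, where it was high. The fit was limma's, with Benjamini-Hochberg adjustment over all genes tested and a threshold of 0.05 for the adjusted p. No gene passed with a negative interaction (0.0%), although 326 genes had an unadjusted p under 0.05 in that direction (2.28%) against 725 in the positive one (5.06%). The median interaction of all genes was 0.03, and 8060 genes (56.3%) had a value above 0 and 6266 (43.7%) one below.

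The 250 bases before the RefSeq start site are shown for Rnase2a and Hal, the called genes whose promoters were in the RefSeq table (build GRCm38.p6), to show whether short core motifs of smoke and LPS signalling occur there. They are read 5′ to 3′ on the gene's strand, at chr14:51256113-51256362 on the minus strand for Rnase2a and chr10:93488518-93488767 on the plus strand for Hal. Capitals mark the match to a searched motif.
Rnase2a: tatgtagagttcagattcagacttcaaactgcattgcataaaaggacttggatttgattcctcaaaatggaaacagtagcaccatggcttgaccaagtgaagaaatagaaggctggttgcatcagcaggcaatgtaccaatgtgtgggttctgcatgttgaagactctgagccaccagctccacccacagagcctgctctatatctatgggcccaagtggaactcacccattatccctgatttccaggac
Hal: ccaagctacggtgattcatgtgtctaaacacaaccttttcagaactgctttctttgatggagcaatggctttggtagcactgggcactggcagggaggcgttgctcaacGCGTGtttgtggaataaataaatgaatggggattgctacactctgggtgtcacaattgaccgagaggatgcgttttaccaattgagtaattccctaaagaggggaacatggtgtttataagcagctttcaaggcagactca
In all, 6 motifs were searched on both strands: GCGTG for the aryl hydrocarbon receptor, TGACNNNGC for NRF2, the E-box CACGTG and the D-box TTANGTAA of clock factors, and by their consensus the NF-kB site and the interferon-stimulated response element. The only match in these windows was GCGTG in Hal, 141 bases before the start, with no overlap with another motif. It occurred in 28.2% of the 32851 promoters in the table, against 10.2% for TGACNNNGC, 6.02% for CACGTG, 2.98% for the interferon element, 2.06% for TTANGTAA and 0.356% for the NF-kB site.

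Rnase2a belongs to the eosinophil-associated ribonucleases, secreted proteins of granulocytes and macrophages. Its log2 intensity was 4.78, 4.74 and 4.80 on the air saline arrays, 4.60, 4.64 and 4.82 on smoke saline, 4.69, 4.64 and 4.63 on air LPS, and 6.24 and 6.36 on smoke LPS. It was dim on 9 arrays and stood out only on the smoke LPS arrays, which overlapped with no other group, and it passed the filter on dim genes through those 2 arrays alone. Its interaction was 1.73 ± 0.12 (SE), a 3.32-fold difference between the LPS effects (adjusted p = 6.72e-04, limma). After smoke, LPS raised it by 1.61 (adjusted p = 2.83e-06), and its LPS minus saline difference after air was -0.12 (adjusted p = 0.354). The family is a set of near copies, whose probes can share signal. Rnase2b, Ear14 and Ear6 were too dim to be tested and showed interactions of -0.17, -0.18 and 0.15. The other eosinophil, basophil and mast cell markers gave little to set beside it: 3 of 14 were bright enough to test, with interactions from -0.05 to 0.12.

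Thbs1 encodes thrombospondin-1, a matrix-associated glycoprotein released by platelets and stromal cells that can activate latent TGF-beta. It read 11.38, 11.58 and 11.38 on air saline, 10.83, 10.64 and 10.59 on smoke saline, 11.87, 11.88 and 11.93 on air LPS, and 12.63 and 12.62 on smoke LPS. The 4 groups did not overlap, and smoke saline lay lowest while smoke LPS lay highest. LPS raised Thbs1 by 0.45 ± 0.09 after air (adjusted p = 0.00737) and by 1.94 ± 0.10 after smoke (adjusted p = 1.86e-06), and the interaction was 1.49 ± 0.13 (adjusted p = 0.00335). Read the other way, smoke lowered it by -0.76 with saline (adjusted p = 0.0294), and the smoke minus air difference with LPS was 0.73 (adjusted p = 0.0549). Thbs2, Thbs3 and Thbs4, its relatives, had interactions of 0.08, 0.22 and -0.14, none of which passed.

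Hal encodes histidine ammonia-lyase, which turns histidine into urocanate. Its values were 7.11, 6.98 and 7.04 on air saline, 6.99, 6.99 and 6.76 on smoke saline, 8.28, 8.30 and 8.30 on air LPS, and 9.67 and 9.51 on smoke LPS. The saline groups overlapped, and each LPS group stood above them, smoke LPS highest. LPS raised Hal 2.38-fold after air and 6.39-fold after smoke, and the interaction was 1.43 ± 0.13 (adjusted p = 0.00335, limma). With LPS, the smoke arrays lay above the air arrays by 1.30 (adjusted p = 7.62e-04), and with saline the difference was -0.13 (adjusted p = 0.858).

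Slc16a6 encodes monocarboxylate transporter 7, a carrier of the family that moves lactate, ketone bodies and related acids. It read 6.72, 6.64 and 6.66 on air saline, 6.27, 6.41 and 6.17 on smoke saline, 7.82, 8.07 and 8.09 on air LPS, and 8.86 and 8.80 on smoke LPS. As with Thbs1, no group overlapped another and the order of the groups was the same. LPS raised it 2.49-fold after air and 5.83-fold after smoke, an interaction of 1.23 ± 0.14 (adjusted p = 0.0211). Slc16a10, a carrier of aromatic amino acids, came next in the family at 1.07 and did not pass; among the other members tested, the values ran from -0.92 for Slc16a12 and -0.76 for Slc16a7 to 0.25 for Slc16a9.

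**Figure D1:**
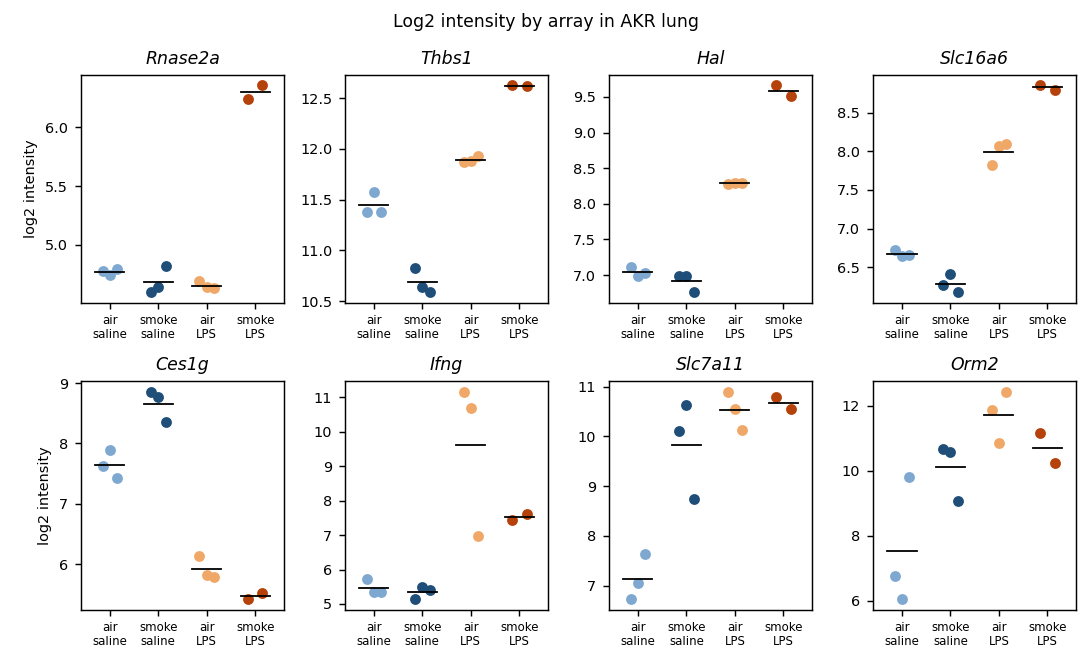
Log2 intensity of 8 genes on each of the 11 AKR arrays, by group; a point is an array and a bar the group mean, and each panel has its own vertical scale that does not start at 0. Rnase2a, Thbs1, Hal and Slc16a6 passed the test of the interaction, with smoke LPS arrays above all others; Ces1g, Ifng, Slc7a11 and Orm2 had negative interactions that did not pass.

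Rnase2a passed in the 21 alternative settings in which it was tested, among them the fit with no filter on dim genes. The 2 stricter filters removed it, and since its own rise on the smoke LPS arrays let it through the filter in most other settings, that count says little about its stability. Thbs1 and Hal passed in 22 of 23 and fell just short, at an adjusted p of 0.0517 each, without smoke LPS array 1. Slc16a6 passed in 13 of 23 and was lost without any of 6 single arrays: the 3 air saline arrays, smoke saline array 1 and either smoke LPS array. It was also lost after renewed quantile normalization, with each probe set tested singly, and without empirical Bayes. The fit with the replicate number as a block lost it too. Leaving out smoke LPS array 1 left 1 called gene, Rnase2a. Leaving out smoke saline array 3 or air LPS array 3 gave 7 called genes each, and with air LPS array 3 left out Ifng and Il12b passed with a negative interaction.

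The genes ranked next by their p in the positive direction, none of which passed, included a scavenger receptor, an acute-phase protein and a matrix protein. Marco, a macrophage receptor that binds bacteria and particles, read 6.45, 5.99 and 6.16 on air saline, 6.35, 6.17 and 6.36 on smoke saline, 7.23, 7.02 and 7.20 on air LPS, and 8.37 and 8.51 on smoke LPS. Smoke LPS arrays overlapped with no other group, and the interaction was 1.20 ± 0.18 (adjusted p = 0.103). With LPS, Marco was higher after smoke than after air by 1.29 (adjusted p = 0.0112). Saa2, an acute-phase apolipoprotein, showed 4.57, 4.52 and 4.32 on air saline, 4.36, 4.46 and 4.45 on smoke saline, 5.31, 5.28 and 5.42 on air LPS, and 6.82 and 6.35 on smoke LPS. It too passed the filter through the 2 smoke LPS arrays alone, with an interaction of 1.30 ± 0.18 (adjusted p = 0.0892), and with LPS it was higher after smoke by 1.25 (adjusted p = 0.0116).

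Tenascin-C, encoded by Tnc, is a matrix glycoprotein of injured tissue. Its values were 8.25, 8.01 and 8.12 on air saline, 7.22, 7.14 and 7.27 on smoke saline, 9.76, 9.83 and 9.28 on air LPS, and 10.29 and 10.002 on smoke LPS. The groups kept the order seen for Thbs1 without overlap, and the interaction was 1.44 ± 0.22 (adjusted p = 0.103). The other genes of this rank were F630028O10Rik at 1.34, Slc16a10 at 1.07, Tnfrsf12a (the receptor of TWEAK) at 0.91, Trmt61a (a tRNA methyltransferase subunit) at 0.82 and Eef1e1 (part of the multi-tRNA synthetase complex) at 0.73, with adjusted p from 0.0913 to 0.118. In the comparison of smoke with air, 5 genes passed with LPS (0.0349%): Rnase2a, Hal, Marco, Saa2 and Slc16a6, all higher after smoke. Rnase2a and Saa2 were bright enough to be tested only through the smoke LPS arrays that this comparison uses, so their passing carries little weight. With saline, 4 genes passed (0.0279%): Per3 and Hlf were higher after smoke by 1.12 and 0.86, and Thbs1 and Spon2 lower by -0.76 and -1.66. Per3 and Hlf are clock genes and Spon2 encodes the matrix protein spondin-2.

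**Figure D2:**
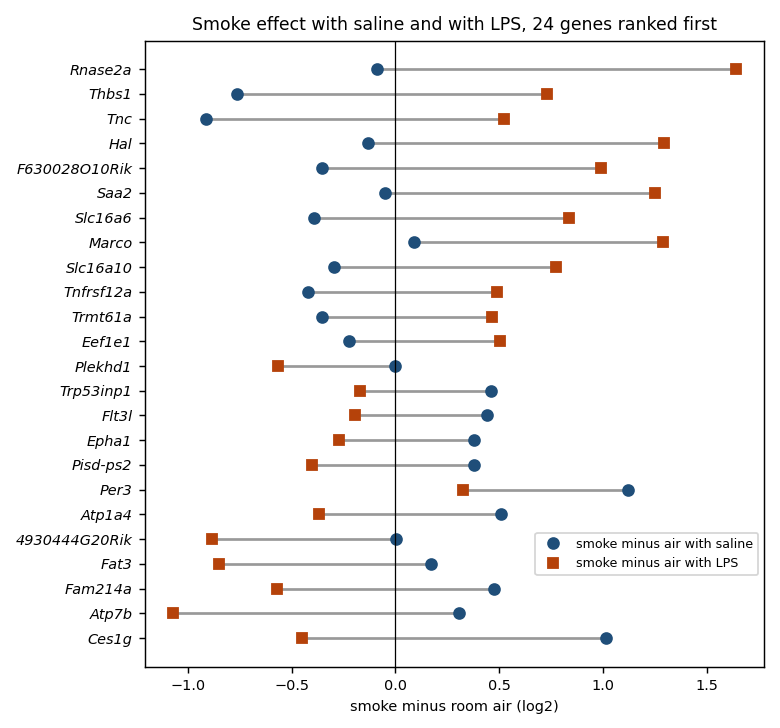
Smoke minus room air difference (log2) with saline (circles) and with LPS (squares) for the 12 genes ranked first by p in each direction of the interaction; a line joins the pair of a gene and its length is the interaction. For Rnase2a, Hal, Saa2 and Marco the circle lies near 0 and the square between 1.25 and 1.64, whereas Thbs1 and Tnc run from -0.76 and -0.91 to 0.73 and 0.52.

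No gene with a negative interaction passed. The first by p was Ces1g, a carboxylesterase of the airway and liver, at 7.62, 7.89 and 7.43 on air saline, 8.86, 8.78 and 8.35 on smoke saline, 6.13, 5.83 and 5.79 on air LPS, and 5.42 and 5.52 on smoke LPS. Smoke saline arrays were the highest and smoke LPS arrays the lowest, with no overlap between groups. LPS lowered Ces1g by -1.73 after air and -3.19 after smoke (adjusted p = 7.39e-05 and 2.83e-06), and the interaction was -1.46 ± 0.24 (adjusted p = 0.126). Atp7b, a copper-transporting ATPase, followed the same course, with LPS effects of -0.84 after air and -2.21 after smoke and an interaction of -1.38 ± 0.27 (adjusted p = 0.223). The remaining genes of this rank were Fam214a at -1.04, Fat3 (an atypical cadherin) at -1.02, Atp1a4 (a sodium pump subunit) and 4930444G20Rik at -0.88, Per3 at -0.80, Pisd-ps2 at -0.78, Epha1 (an ephrin receptor) at -0.65, Flt3l (the growth factor of dendritic cells) at -0.64, Trp53inp1 at -0.63 and Plekhd1 at -0.56. Their adjusted p ran from 0.204 to 0.393.

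Larger negative interactions had wider errors. Slc7a11, the cystine transporter that feeds glutathione synthesis, read 6.73, 7.05 and 7.64 on air saline, 10.11, 10.64 and 8.75 on smoke saline, 10.90, 10.55 and 10.14 on air LPS, and 10.80 and 10.55 on smoke LPS. Only the air saline arrays were low; the smoke saline arrays lay from 8.75 to 10.64, and 2 of them overlapped with or came near the LPS groups. Its interaction was -2.55 ± 0.63 (unadjusted p = 0.00239, adjusted p = 0.399, limma). LPS raised it by 3.39 after air (adjusted p = 5.12e-04), and its LPS minus saline difference after smoke was 0.84 (adjusted p = 0.213). Of the 24 NRF2 target genes tested, including Slc7a11, none passed, 6 had a positive interaction and the median was -0.17; it was -0.33 without smoke saline array 3, -0.27 without air saline array 3, -0.10 without air saline array 2 and -0.08 without smoke saline array 2. Nqo1, a quinone reductase, stood at -0.59 and Hmox1, heme oxygenase 1, at 0.29. Of the 11 genes of the aryl hydrocarbon receptor list 6 could be tested, with none called; Cyp1a1 was too dim.

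**Figure D3:**
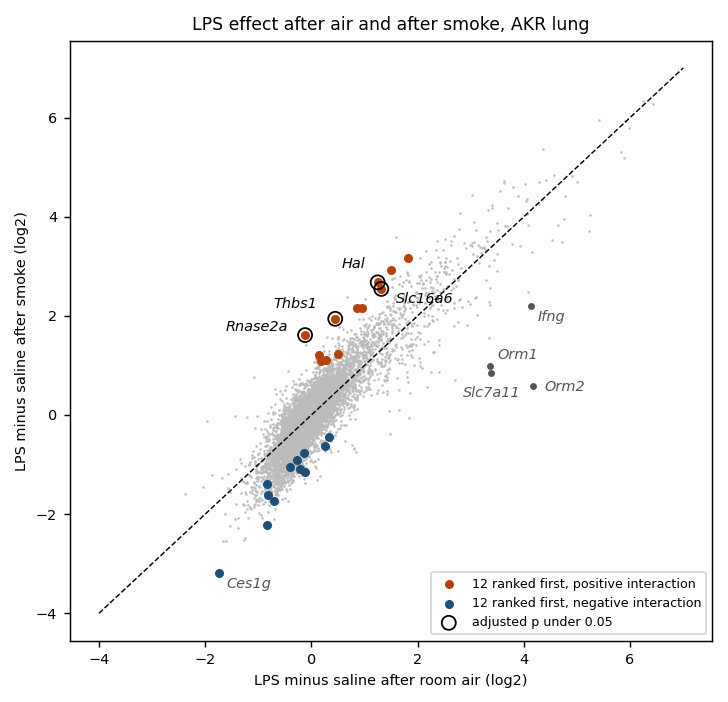
LPS minus saline difference (log2) after room air (horizontal) and after smoke (vertical) for the 14326 genes tested, 1 point a gene; the dashed line marks equal effects. The 4 called genes (rings) lie above the line with effects after smoke of 1.61 to 2.68, and Orm2, Slc7a11, Orm1 and Ifng lie below it.

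Over all genes the LPS effects after air and after smoke, which share no arrays, correlated at r = 0.890 (rho = 0.809) across 14326 genes, which are not independent of each other. Their SD over genes was 0.544 after air and 0.649 after smoke, and 0.600 after air without air LPS array 3. LPS changed 2411 genes after air (16.8%) and 4176 after smoke (29.1%); a difference between such counts is no test of the interaction. Without air LPS array 3 the counts were 2288 and 4184, and without smoke LPS arrays 1 and 2, each in turn, 2018 after air in both cases against 1876 and 1909 after smoke; without air saline array 1 and air LPS array 1 the count after air was 1497 and 1573. The size of the LPS effect was larger after smoke for 66.1% of all genes, and for 62.4% without air LPS array 3. In contrast, the smoke effects with saline and with LPS correlated at r = 0.232 (rho = 0.207), with an SD of 0.195 and 0.275. Among the 725 genes with a positive interaction at an unadjusted p under 0.05, the smoke minus air difference had opposite signs with saline and with LPS in 81.1%, against 41.3% of all genes; that share is raised by choosing genes on the interaction itself.

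A list of LPS-responsive genes was taken from the 6 C57 arrays after room air, which enter none of these values. Of 452 genes raised there more than 1 log2 unit, 282 had a positive interaction in AKR (62.4%, near the 56.3% of all genes), and Slc16a6 passed. At an unadjusted p under 0.05 there were 93 positive and 9 negative genes (20.6% and 1.99%, against 5.06% and 2.28% of all genes). These counts moved with single arrays, as did the shares of all genes. They were 73 and 57 without air LPS array 3, against 3.55% and 2.49% of all genes then. Without air LPS array 2 they were 142 and 13, against 9.3% and 4.94% of all genes. Without smoke saline array 1 they were 70 and 9, against 4.06% and 1.93% of all genes. Counts without a smoke LPS array, which leave a single array in that group, are not given. The negative count was 23 and 15 without air saline array 3 and smoke saline array 3, against 4.84% and 3.64% of all genes. The median was 0.24, against 0.03 for all genes, and it was 0.05 without air LPS array 3. The mean level of this list was 1.09, 1.29 and 0.59 on the air LPS arrays and 1.28 and 1.18 on smoke LPS, so the groups overlapped and the third air LPS array stood lowest. Of 99 genes lowered in C57, 76 had a negative interaction (43.7% of all genes did), with a median of -0.26; it was -0.47 without smoke LPS array 1, -0.14 without air LPS array 1 and -0.08 without smoke LPS array 2.

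Most genes of LPS sensing and of the first NF-kB response had small interactions with wide intervals, and none passed. Among 24 genes of LPS sensing tested the median was 0.23 (0.08 without air LPS array 3), and 18 were positive. Tlr4 stood at 0.61, the decoy kinase Irak3, which restrains TLR signalling, at 0.82, and the co-receptor Cd14 at -0.59. Tlr4 read 8.14, 8.05 and 8.18 on air saline, 7.90, 7.85 and 7.82 on smoke saline, 8.43, 8.63 and 8.23 on air LPS and 8.76 and 8.79 on smoke LPS. Its smoke LPS arrays were the highest and its smoke saline arrays the lowest, and groups did not overlap, but its adjusted p was 0.399. The NF-kB inhibitors Nfkbia and Tnfaip3 stood at 0.08 each, with 95% confidence intervals from -0.58 to 0.74 and from -0.75 to 0.92. For 17 NF-kB genes the median was 0.17; it was 0.09 without smoke LPS array 1 and -0.05 without air LPS array 3.

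For Tnf, Il6 and Il1b, main cytokines of the LPS response, no interaction was detectable. The interaction was 0.30 for Tnf (95% interval -0.78 to 1.39), -0.30 for Il6 (-1.45 to 0.86) and 0.28 for Il1b (-0.69 to 1.25), set against LPS effects of 4.05, 5.003 and 4.57 after air. The neutrophil chemokines Cxcl1 and Cxcl2 stood at 0.22 and -0.18. Cxcl3, of the same class, read 8.54, 9.04 and 8.85 on air LPS and 10.01 and 9.59 on smoke LPS, against 5.15 to 5.40 on all saline arrays, so that the LPS groups did not overlap; its interaction was 0.97 ± 0.22 (adjusted p = 0.387).

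Csf2, encoding the growth factor GM-CSF of alveolar macrophages, read 6.48, 6.43 and 6.22 on air saline, 5.96, 5.95 and 6.23 on smoke saline, 7.69, 8.29 and 8.53 on air LPS, and 8.85 and 9.03 on smoke LPS. LPS groups did not overlap, and the interaction was 1.09 ± 0.28 (adjusted p = 0.420). The alarmin Il33 stood at 1.27 ± 0.32 (adjusted p = 0.399), with 9.01, 9.30 and 9.26 on air LPS and 10.10 and 10.08 on smoke LPS. Of 13 CC chemokines, which draw monocytes and lymphocytes, 10 were positive and none passed; Ccl9 stood at 1.14 and Ccl2 at 0.65. Their median of 0.34 was 0.51 without air LPS array 2, 0.21 without smoke LPS array 1 and 0.06 without air LPS array 3.

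Interferon genes had mostly negative interactions, whose size moved with single arrays. Ifng, interferon gamma itself, read 5.73, 5.35 and 5.35 on air saline, 5.14, 5.50 and 5.39 on smoke saline, 11.16, 10.70 and 6.96 on air LPS, and 7.44 and 7.62 on smoke LPS. The third air LPS array lay below the smoke LPS arrays and the other air LPS arrays far above them. Its interaction was -1.94 ± 1.27 (adjusted p = 0.722) and became -3.26 without that array (adjusted p = 0.00239, limma); it was -1.16 without air LPS array 1. All 16 tested Cxcr3 ligands and interferon gamma-induced genes had a negative interaction (43.7% of all genes did), none of them at an unadjusted p under 0.05, whereas 12 of the 16 reached it without air LPS array 3 (2.49% of all genes did then). Their median was -0.62, from -1.13 without air LPS array 3 to -0.31 without air LPS array 2. Irgm1, a GTPase of cell defence, stood at -1.06, the tryptophan-degrading enzyme Ido1 at -1.15, and the T cell chemokines Cxcl9 and Cxcl10 at -0.70 and -0.53. Without air LPS array 3 these genes stood lowest, at -1.51, -1.82, -1.17 and -0.99; the values nearest 0 were -0.59 for Irgm1, -0.27 for Cxcl9 and -0.27 for Cxcl10 without smoke saline array 2, and -0.59 for Ido1 without air LPS array 2. Markers of natural killer cells, a source of interferon gamma, had a median of -0.32 over 10 genes (-0.60 without air LPS array 3 and -0.06 without air LPS array 2).

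Type I interferon-stimulated genes had a median of -0.46 over 21 genes, of which 1 was positive and none passed. The mean level of the list was -1.16, 0.59 and -1.05 on the smoke saline arrays, 1.26, 1.50 and 0.14 on air LPS and 1.12 and 1.20 on smoke LPS. Smoke saline array 2 stood far above its group, as Irf7, the master factor of this pathway, shows with 7.82, 10.87 and 7.66. Without that array the median was 0.06 and 17 of 21 genes were positive; it was -0.77 and -0.74 without smoke saline arrays 1 and 3, and -0.28, -0.16 and -0.89 without air LPS arrays 1, 2 and 3.

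Neutrophil genes, the main cellular sign of LPS in the lung, showed no called interaction. S100a8 and S100a9, which encode calprotectin, stood at 0.43 (95% interval -0.80 to 1.65) and -0.00 (-1.23 to 1.23). For 18 neutrophil markers the median was 0.12 and 13 were positive; the median was 0.05 without air saline array 2 and 0.33, 0.28, 0.31 and 0.22 without air saline array 3, smoke saline array 3, air LPS array 2 and smoke LPS array 1. The mean list level was 1.45, 1.65 and 1.14 on air LPS and 1.76 and 1.71 on smoke LPS. Smoke LPS arrays thus lay above the air LPS arrays, by less than the spread among those. In whole lung, more cells of a type and more RNA per cell cannot be told apart, here and in the lists that follow.

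Macrophage genes had mostly positive interactions, as did markers of several other lung cell types, and none passed. Of 15 alveolar macrophage markers 12 had a positive interaction (80%, against 56.3% of all genes), and the median was 0.45; it was 0.29 without air LPS array 1 and 0.71 without air LPS array 2 or smoke LPS array 1. The mean level was -0.12, 0.19 and -0.14 on air LPS against 0.49 and 0.65 on smoke LPS, with no overlap between these groups. Besides Marco, the chitinase-like protein Chil3 stood at 1.17 ± 0.61, whereas Siglecf, the surface marker of these cells, stood at -0.05. For 16 genes of lipid-laden and smoke-associated macrophages the median was 0.44, or 0.30 without air LPS array 1. Of these, 5 had an unadjusted p under 0.05, all positive (31.2%, against 5.06% of all genes). That count was 9 without air LPS array 2 and 3 without smoke saline array 1, against 9.3% and 4.06% of all genes then. It is not given without a smoke LPS array, which leaves a single array in that group. In this list, the zinc transporter Slc39a2 read 7.99, 8.41 and 7.83 on air LPS and 8.86 and 8.94 on smoke LPS. Its interaction was 1.01 ± 0.23 (adjusted p = 0.387, limma). The macrophage elastase Mmp12 stood at 0.60 and the fatty acid-binding protein Fabp5 at 0.80, and Apoe and Lgals3 at -0.15 and -0.20. Monocyte and interstitial macrophage markers had a median of 0.42 over 16 genes (0.26 without air LPS array 3, 0.66 without air LPS array 2), among them Treml4 at 1.27 and Adgre1 (F4/80) at 0.78.

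Endothelial and alveolar epithelial markers leaned the same way, with smaller medians. Of 22 endothelial markers 20 were positive (90.9%), with a median of 0.30 and none at an unadjusted p under 0.05; the mucin-like surface protein Emcn and the TGF-beta co-receptor Eng stood highest at 0.84 and 0.72. Alveolar type 1 markers, of the thin gas-exchange cells, were positive in 11 of 12 cases with a median of 0.27. Surfactant and alveolar type 2 markers were positive in 15 of 17 cases with a median of 0.26, from 1.27 for Il33 to -1.12 for Lcn2. The surfactant protein genes Sftpc and Sftpb stood at 0.12 and 0.10. These medians moved with single arrays, from 0.08 without air LPS array 1 to 0.59 without air saline array 3 for the endothelial list. The type 1 list ran from 0.09 without smoke LPS array 2 to 0.47 without air saline array 3, and the type 2 list from 0.12 without air LPS array 1 to 0.46 without smoke saline array 3. The macrophage lists, at 80%, 68.8% and 81.2% positive, thus did not exceed these lists in the share of positive values, and a difference between the lists was not tested.

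Genes of clotting and of tissue remodelling also had mostly positive values. Of 16 coagulation and fibrinolysis genes 14 were positive, 7 at an unadjusted p under 0.05 (43.8%, against 5.06% of all genes), and Thbs1 alone passed. The median was 0.45, or 0.28 without air LPS array 3 or smoke LPS array 1. Coagulation factor X, encoded by F10, read 7.42, 7.28 and 6.95 on air saline, 7.13, 7.05 and 7.44 on smoke saline, 9.68, 9.999 and 9.09 on air LPS, and 10.71 and 10.73 on smoke LPS. Its saline groups overlapped and its LPS groups did not, with an interaction of 1.14 ± 0.32 (adjusted p = 0.487). Plat, the tissue plasminogen activator, stood at 1.07, F7 and F3, which start clotting, at 0.82 and 0.70, and the protein C receptor Procr at -0.74. Platelet genes had a median of 0.05 over 9 genes, and that median ran from -0.07 to 0.24 when single arrays were left out.

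Among 18 tissue remodelling proteases and inhibitors 16 were positive (88.9%, against 56.3% of all genes). Of the list, 7 had an unadjusted p under 0.05 (38.9%, against 5.06% of all genes), and none passed. That count was 9 without air LPS array 2 and 5 without air LPS array 3, against 9.3% and 3.55% of all genes then. It is not given without a smoke LPS array, which leaves a single array in that group. The median was 0.39 and stayed between 0.31 and 0.46 without any 1 array. Mmp19 read 7.92, 7.71 and 8.02 on air saline, 7.63, 7.60 and 7.81 on smoke saline, 8.41, 8.73 and 8.37 on air LPS, and 9.18 and 9.23 on smoke LPS, an interaction of 0.91 ± 0.18 (adjusted p = 0.240). The gelatinase Mmp9 stood at 0.88 and the collagenase Mmp13 at 0.80. The list level was 0.28, 0.44 and 0.24 on air LPS and 0.75 and 0.66 on smoke LPS, whereas the saline groups overlapped between -0.43 and -0.32. Of 22 collagen and matrix genes, 16 were positive with a median of 0.23; the collagen cross-linking enzymes Lox and Loxl1 stood at 1.04 and 0.70.

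**Figure D4:**
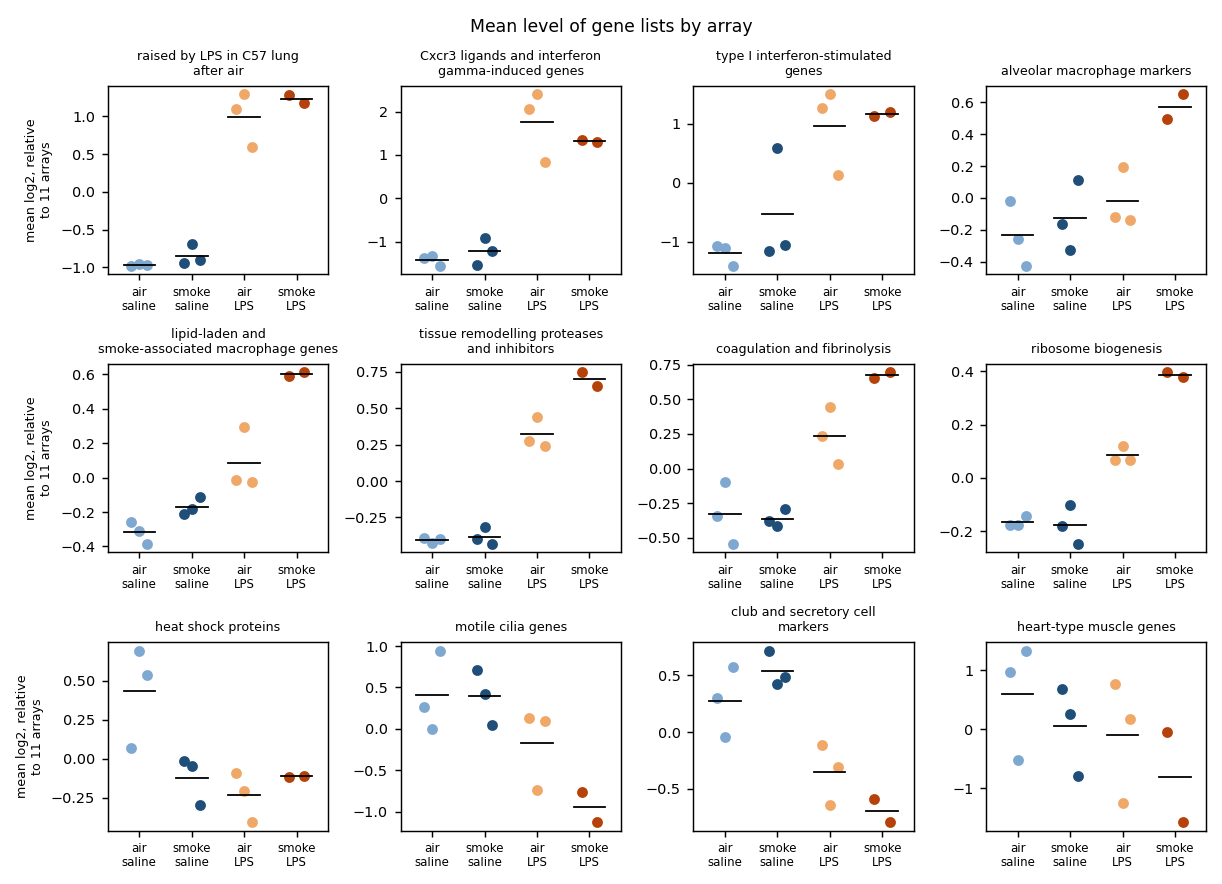
Mean log2 level of 12 gene lists on each of the 11 AKR arrays, relative to the mean of the 11 arrays; a point is an array and a bar the group mean, and each panel has its own vertical scale. Smoke LPS arrays lie above the air LPS arrays for the macrophage, protease, coagulation and ribosome biogenesis lists, air LPS array 3 is lowest of its group for the LPS and interferon lists, and heart-type muscle genes vary widely within every group.

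Genes of the airway epithelium had mostly negative interactions. All 20 motile cilia genes had a negative interaction (43.7% of all genes did), 2 of them at an unadjusted p under 0.05 (10% against 2.28%), and none passed. That count of 2 was 14 without air saline array 3, 15 without air LPS array 2 and 3 without smoke saline array 3. The shares of all genes were then 4.84%, 4.94% and 3.64%. The count was 0 or 1 without any other saline or air LPS array. The median was -0.76 and lay between -1.07 and -0.57 without any 1 array. Dnah5, a dynein heavy chain of the ciliary beat, read 9.61, 9.18 and 10.52 on air saline, 10.15, 9.90 and 9.57 on smoke saline, 9.60, 8.28 and 9.44 on air LPS, and 8.32 and 8.08 on smoke LPS, an interaction of -1.01 ± 0.57 (adjusted p = 0.702). Air LPS array 2 was as low as the smoke LPS arrays, so the LPS groups overlapped. Across the list the air LPS arrays stood at 0.14, -0.73 and 0.10 and the smoke LPS arrays at -0.76 and -1.13. The heart-type muscle list stood at 0.77, -1.25 and 0.17 and at -0.05 and -1.58 on the same arrays; its part in the cilia values was not tested.

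Club and secretory cell markers, genes of the non-ciliated airway cells that secrete protective proteins and detoxify inhaled compounds, were negative in 16 of 17 cases. Of these, 7 had an unadjusted p under 0.05 (41.2%, against 2.28% of all genes), and none passed. That count was 10 without air LPS array 2, against 4.94% of all genes then. It was 4 without air saline array 1 or 2, smoke saline array 1, or air LPS array 1 or 3. The median was -0.47, from -0.66 to -0.35 without any 1 array. The secretoglobin Scgb3a2 read 9.87, 9.48 and 10.56 on air saline, 10.60, 10.26 and 10.24 on smoke saline, 9.30, 7.98 and 8.81 on air LPS, and 8.01 and 7.67 on smoke LPS, an interaction of -1.25 ± 0.50 (adjusted p = 0.654). Krt15, a keratin of basal cells, stood at -1.09, with 7.95 to 8.62 on smoke saline against 6.68 to 6.90 on air saline. Scgb1a1, the main club cell protein and among the brightest genes on the arrays, stood at -0.32 (95% interval -0.56 to -0.07, adjusted p = 0.594). Mucin and goblet cell genes had a median of -0.89 over 13 genes, or -0.26 without air saline array 2; Agr2 and Reg3g stood at -1.88 ± 1.26 and -2.00 ± 2.09. Agr2 ran from -2.93 without smoke LPS array 1 to -0.83 without smoke LPS array 2, and Reg3g from -3.21 without smoke saline array 2 to -0.46 without air saline array 2.

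The acute-phase genes did not share a direction. Orm1 and Orm2, encoding the plasma protein orosomucoid, stood at -2.37 ± 0.97 and -3.59 ± 1.30 (adjusted p = 0.658 and 0.626), whereas their neighbour Orm3 stood at 1.00 and was bright on the smoke LPS arrays at 8.09 and 7.66 against 6.23 to 6.94 on air LPS. Orm2 read 6.75, 6.04 and 9.82 on air saline, 10.66, 10.58 and 9.06 on smoke saline, 11.85, 10.86 and 12.43 on air LPS, and 11.15 and 10.22 on smoke LPS. The air saline arrays themselves spread over more than 3 log2 units, and the smoke saline arrays overlapped with the smoke LPS arrays. Saa3 and the siderophore-binding Lcn2 stood at -1.21 and -1.12, against 1.30 for Saa2. The genes of the Orm and Saa families are near copies, so their probes can share signal. The median of 14 acute-phase genes was -0.46, or -0.74 without air saline array 3 and -0.30 without air saline array 2.

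Heat shock genes, the chaperones of stressed cells, had a median of 0.50 over 14 genes (0.44 to 0.64 without any 1 array), with 13 positive (92.9%, against 56.3% of all genes) and 7 at an unadjusted p under 0.05 (50%, against 5.06%), none passing. Those 7 became 10 without air saline array 1, against 3.89% of all genes then. They became 5 without air saline array 3, smoke saline array 3 or air LPS array 3, against 7.45%, 5.67% and 3.55% of all genes. Counts without a smoke LPS array, which leave a single array in that group, are not given. The mean list level was 0.07, 0.69 and 0.54 on the air saline arrays, against -0.41 to -0.02 on the other arrays. Air saline arrays 2 and 3 thus stood apart, and air saline array 1 lay near the rest. Hspa1a, the inducible HSP70, read 9.42, 12.02 and 10.32 on air saline, 8.83, 8.997 and 8.18 on smoke saline, 9.40, 8.37 and 8.09 on air LPS, and 8.44 and 8.68 on smoke LPS, so that the air saline arrays were the highest and array 2 the highest of them. Its interaction of 1.85 ± 0.85 (adjusted p = 0.680) was 1.13 without that array. Hsph1 and Dnajb1, partner chaperones, stood at 1.43 and 1.18. For 20 genes of the unfolded protein response the median was 0.12, or 0.06 without air saline array 2 and 0.04 without air LPS array 3; the chaperones Hspa5 and Manf of the endoplasmic reticulum stood at 0.39 and 0.56.

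Among 17 clock genes none passed and 4 negative values and 1 positive value had an unadjusted p under 0.05 (23.5% and 5.88%, against 2.28% and 5.06% of all genes); without any 1 array there were 2 to 5 and 0 to 3. Per3, which smoke raised with saline, had an interaction of -0.80 and Per1 -0.76, whereas Per2 stood at -0.09 with smoke minus air differences of 0.92 with saline and 0.83 with LPS. The median of the list was -0.17; it was -0.02 without smoke saline array 1, -0.06 without air LPS array 2, -0.11 without smoke LPS array 1 and -0.28 without air LPS array 1. Time of collection is not given in the sources used here.

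**Figure D5:**
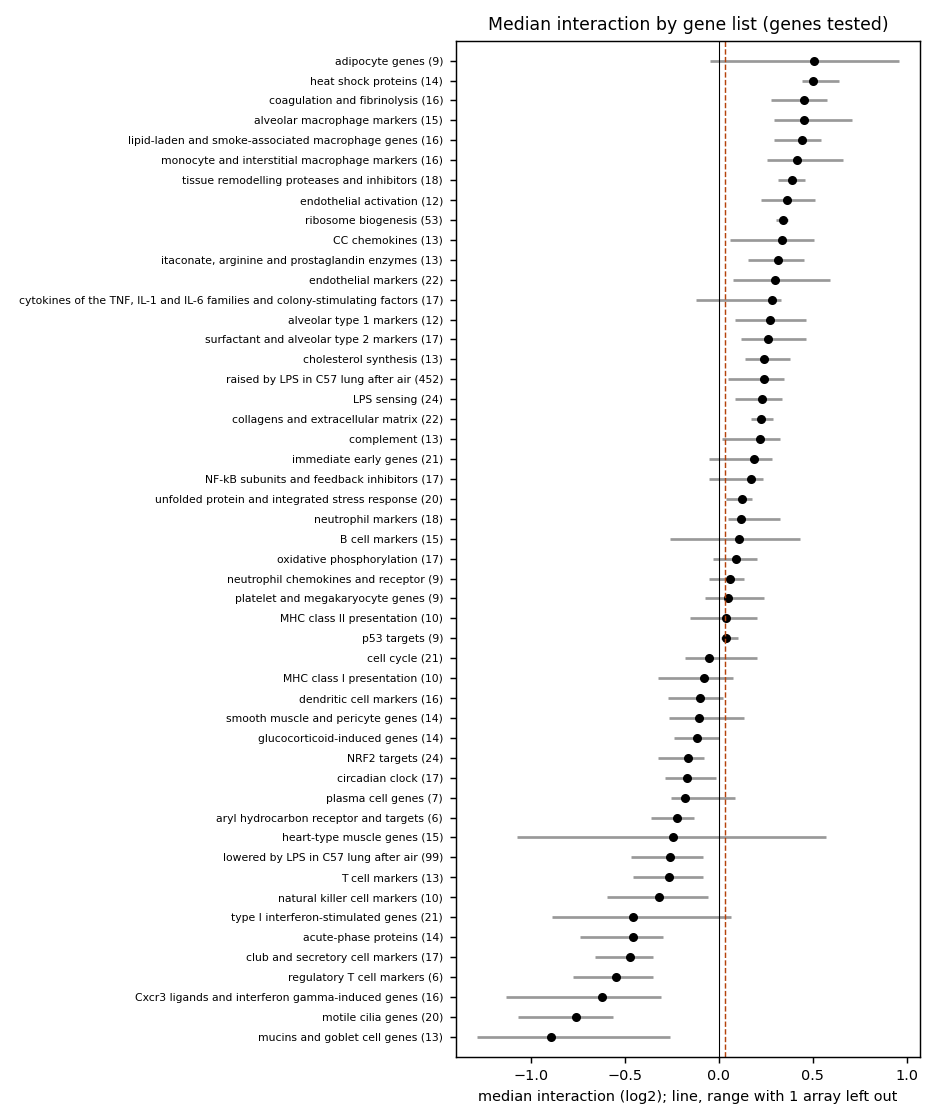
Median interaction (log2) of each gene list with at least 6 genes tested (number in brackets); a point is the median, a line the range of that median when 1 of the 11 arrays is left out, and the dashed line the median of all genes, 0.03. Motile cilia, club cell and interferon gamma-induced genes are among the lists that stay below 0 in every case. Heat shock, protease, coagulation and alveolar macrophage genes are among those that stay above the dashed line. Ribosome biogenesis genes stay above it too, but were listed after high values of several of them had been seen. The lines of several other lists cross 0.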

How the data were processed

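The deposited log2 intensities of 35556 probe sets were made by the authors with RMA, per the submitters' processing notes, which give no version; arrays came from biotin-labelled cRNA, per the labels' protocols. RMA includes quantile normalization, so a shift shared by most genes of an array would not show. Names came from the platform annotation (21789 with 1 symbol, 1621 with several, 12146 unnamed here), and a gene was read from its brightest probe set over the 11 arrays. Genes above the 40th percentile of an array on at least 2 arrays were tested, 14326 of 19938. Group means were fitted to 11 arrays with limma 3.58.1 in R 4.3.3 (7 residual degrees of freedom, empirical Bayes, two-sided, Benjamini-Hochberg adjustment per contrast) and tested on simulated data; ± is the standard error. "Raised", "lowered" and "changed" are used for adjusted p under 0.05.

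The members and the 50 gene lists were chosen with earlier results of these data known. Named were up to 12 genes per direction (called ones first, then by p), up to 3 per list by size of the interaction, and a set of fixed genes; relatives of called genes and further list members were named after their values were seen. Figures were drawn with matplotlib 3.10.9.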

Additional observations from a re-analysis of the deposited data

Results flagged for a closer look

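The LPS effect differed between the air and smoke groups, by limma's test of the interaction with adjusted p under 0.05, for Rnase2a (interaction 1.73), Thbs1 (1.49), Hal (1.43) and Slc16a6 (1.23). In each of these genes both smoke LPS arrays lay above all 9 other arrays. Rnase2a was bright enough to be tested only through those smoke LPS arrays.

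Among 104 of the genes named, a pair of others had LPS arrays wholly above the saline arrays after air and wholly below them after smoke. Both had been ranked among the first by p in the negative direction, which favours this pattern. Its share over all genes was not counted. Pisd-ps2, a pseudogene, read 8.07, 8.22 and 8.32 on air saline and 8.59, 8.45 and 8.54 on air LPS, but 8.56, 8.45 and 8.72 on smoke saline and 8.08 and 8.17 on smoke LPS. Its interaction was -0.78 and did not pass (adjusted p = 0.204). 4930444G20Rik read 6.64, 6.53 and 6.54 on air saline and 6.97, 6.83 and 6.69 on air LPS, but 6.75, 6.26 and 6.70 on smoke saline and 5.98 and 5.91 on smoke LPS, with an interaction of -0.88 that did not pass (adjusted p = 0.363).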

How the results depend on the processing

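The 4 calls became 3 to 5 under other filters, probe set rules, variance models, renewed quantile normalization or all 13 AKR arrays with an instillation or 3 weeks of air alone. They became 8 with each array centred on its median, all positive, and 151 with array weights (110 positive, 41 negative), and both sets held the 4 genes; the cause was not tested. Median centring moved the median of all genes to 0.10. Of the genes at an unadjusted p under 0.05, 88.1% were then positive, against 69% in the same fit of the deposited values. Without any 1 array there were 1 to 7 calls. With the replicate number as a replicate block 3 genes passed, without Slc16a6. Arrays sharing a number correlated at -0.545 to 0.548 in their deviations from group means, with 7 of 15 pairs over 0.1. Arrays with different numbers correlated at -0.562 to 0.462, with 12 of 30 pairs over 0.1. Deviations within such small groups are tied to each other, so these values cannot decide whether the numbers pair the arrays. The median of the C57-raised genes was 0.05 to 0.35 without any 1 array, 0.20 after renewed quantile normalization and 0.31 after centring.

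Emcn, Eng, Sftpc, Sftpb, Rnase2b, Ear14 and Ear6 were not run through the alternatives. Of the 104 named genes that were, 92 kept their sign in all of them. With 1 array left out, the others ran from -0.11 to 0.19 (Nfkbia), -0.25 to 0.27 (Tnfaip3), -0.18 to 0.60 (Tnf), -0.037 to 0.48 (Cxcl1), -0.63 to 0.058 (Cxcl2), -1.29 to 0.31 (Irf7), -0.30 to 0.39 (S100a9), -0.25 to 0.030 (Per2), -0.19 to 0.15 (Siglecf), -0.026 to 0.18 (Thbs2), -0.26 to -0.01 (Thbs4) and -0.023 to 0.58 (Slc16a9). S100a9 and Siglecf were 0.068 and 0.017 after centring and 0.39 and 0.23 with array weights, Siglecf was 0.021 after renewed quantile normalization, and Thbs4 was 0.019 with array weights. With 2 smoke LPS arrays, a left-out one leaves that group's spread to be taken from the other groups.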

Other observations

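Genes of ribosome biogenesis, which build ribosomal subunits in the nucleolus, were listed after high values of several of them had been seen, so their counts describe these arrays and test nothing. Of 53 genes tested 49 had a positive interaction and 26 an unadjusted p under 0.05 (49.1%, against 5.06% of all genes; 17 genes without smoke LPS array 1), none passing. The median was 0.34, between 0.31 and 0.37 without any 1 array. The mean list level was 0.07, 0.12 and 0.07 on air LPS and 0.40 and 0.38 on smoke LPS, against -0.25 to -0.10 on all saline arrays, so the LPS groups did not overlap. Bysl, a factor of small subunit assembly, read 7.66, 7.75 and 7.53 on air saline, 7.27, 7.21 and 7.06 on smoke saline, 7.88, 7.63 and 7.74 on air LPS, and 8.18 and 8.10 on smoke LPS, an interaction of 0.85 ± 0.14 (adjusted p = 0.141). Smoke saline arrays were lowest and smoke LPS arrays highest, and the air groups overlapped. Heatr1 and Gnl3, nucleolar proteins, stood at 0.73 and 0.69, and Polr1c, a shared subunit of RNA polymerases I and III, was the lowest at -0.31.

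Lymphoid and antigen presentation genes had no called interaction. T cell markers had a median of -0.26 over 13 genes, with 1 positive; it was -0.45 without air LPS array 3, -0.13 without smoke LPS array 2 and -0.08 without air LPS array 1. Nlrc5, the activator of MHC class I genes, read 10.90, 10.84 and 10.45 on air LPS and 10.13 and 10.20 on smoke LPS, with no overlap, at an interaction of -0.57 (adjusted p = 0.536). Xcr1, a receptor of cross-presenting dendritic cells, stood at -0.75 (adjusted p = 0.454) and Klrd1, of natural killer cells, at -0.66. Arg1, arginase 1, read 6.67, 6.54 and 7.23 on air LPS and 8.15 and 7.28 on smoke LPS, an interaction of 0.97 (adjusted p = 0.595).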
